A study of Mus musculus with 11 samples.

Results

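Acute phase proteins are secreted proteins whose blood level shifts during inflammation, and white fat makes several of them. The 10 genes described here are Hp, Lrg1, Lbp, Saa3, Orm1, Orm2, Lcn2, Serpina3n, Cp and Itih4. They were taken by gene symbol from a list of acute phase genes, and all 10 were among the 15453 genes measured in each mouse. The genes were chosen by a list drawn up with their measured WT and pKO levels in view, so differences between genotypes are given for these genes as a description. Where counts of calls from the fit over all genes include them, nothing is read from those counts. The samples were epididymal white fat (eWAT) from 11 male mice of strain C57BL/6 (C57BL/6J in the study's methods), sampled at 16 weeks of age after high fat feeding that began at 8 weeks. The wildtype (WT) group held 6 mice. The other group held 5 mice labelled Mest+/-, paternal knockout (pKO), in which exon 3 of Mest was deleted in all tissues of the animal on the allele inherited from the father. LoxP sites were placed around the exon in C57BL/6J embryonic stem cells, the exon was removed by breeding with Ella-cre mice, and WT littermates served as controls. The comparison asks which transcripts of expanded fat differ when Mest is inactivated. The study reports that the pKO mice used here had a lower ratio of fat to lean mass than the WT mice after the diet. Genotype and adiposity therefore cannot be told apart in the differences given below.

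The acute phase response is best known from the liver, where interleukin-6 acting through STAT3, and interleukin-1 and TNF acting through NF-kB, raise the transcription of these genes, with help from C/EBP factors and glucocorticoids. Adipocytes also respond to these signals, and haptoglobin, serum amyloid A3 and lipocalin-2 are known products of obese fat. Serum amyloid A3 is made by activated macrophages as well. Mest is an imprinted gene read from the paternal allele, and its messenger is abundant in fat that is expanding.

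Expression was measured by SAGE (serial analysis of gene expression). Each messenger yields 1 short tag beside a CATG site, the cut site of the enzyme NlaIII. A level is therefore a number of tags, and levels of different genes can be compared without a correction for length. Each value is a tag count divided by the size factor of its library, here called a normalized tag count. The libraries held 9659740 to 14825727 tags in WT and 11320342 to 14626803 tags in pKO mice. Mest had 20756 to 27897 normalized tags in the WT group against 793 to 2275 in the pKO group, so every library matched its label. The Mest tag lies in the last exon, outside the deleted exon 3, and so does not show the deletion itself. Of the 12 adipocyte markers, all averaged 50 or more, and Fabp4 alone averaged 655817 ± 145987 (SD) in the 6 WT and 698530 ± 164317 (SD) in the 5 pKO mice.

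What a tag can tell apart depends on its bases, so the tags of the genes that the results turn on are given first. Each is the 25 bases at the CATG site nearest the 3′ end of the main coding transcript in GENCODE M21 (GRCm38, the same assembly as mm10), read 5′ to 3′, with the enzyme site in capitals, except that 13 bases remain for Lcn2. They were read from the annotation and not from the sequenced tags.
Hp, chr8:109575200-109575224, minus strand: CATGgaagagggggaagtggaaggg
Lrg1, chr17:56119858-56119882, minus strand: CATGtcagtgtgcagattcctcatt
Lbp, chr2:158332769-158332793, plus strand: CATGcctgcgaggagagaccgtgat
Saa3, chr7:46712076-46712100, minus strand: CATGctgccccccgagaagaggagc
Orm1, chr4:63348046-63348070, plus strand: CATGaactcagctctctgaactccg
Orm2, chr4:63365761-63365785, plus strand: CATGaactcagctctctgaactccg
Orm3, chr4:63359429-63359453, plus strand: CATGtgcaccacaccctaccccatc
Serpina3n, chr12:104414168-104414192, plus strand: CATGgggcctgtgggtcagagcagc
Serpina3i, chr12:104269188-104269212, plus strand: CATGgggcctgtgggtcagagcagc
Lcn2, chr2:32384633-32384645, minus strand: CATGcccccactt

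The tags of Hp, Lrg1, Lbp and Saa3 lay in the 3′ UTR of the last exon, and no other annotated transcript had the same 25 bases at its last CATG site. Hp and Lrg1 have 1 coding transcript each in this annotation, and so 1 such tag each. The 3 coding transcripts of Lbp end in 3 different tags, and the 2 each of Saa3 and Lcn2 in 2. Those of Itih4 (4) end in 3 tags and those of Cp (8) in 6. Orm1 and Orm2 had identical tags, which begin in the coding sequence of exon 6 and run into the 3′ UTR, and the transcripts stayed identical for 106 bases from the site. The 2 genes therefore cannot be told apart by this tag, and how tags were divided between them is not given in the sources used here. Orm3, the neighbouring gene of the same family, has a tag of its own.

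Serpina3n shared its 25 bases with Serpina3i, a neighbour in the same serpin cluster, and the identity ran for 29 bases. In Lcn2 the last CATG site lay 13 bases from the end of the main coding transcript, too near to give a full tag. Its next site upstream lies 413 bases from the end and would give the tag CATGgtatttttccgaaagacttct. Among 13081 genes of the tables that matched a coding gene by symbol, 2.87% shared their 25 bases with another gene and 6.96% had the last site within 25 bases of the end. Low values of Lcn2 and the division of tags between Orm1 and Orm2, and between Serpina3n and Serpina3i, are read with these limits.

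Levels of the 10 genes ran from a few tags in a mouse to those of the most abundant messengers of the tissue. Hp, which codes for haptoglobin, the plasma protein that binds free haemoglobin, ranked 8 among all 15453 genes by its mean over the mice. It took 0.847% ± 0.199 (SD) of all tags in the 6 WT and 0.381% ± 0.084 (SD) in the 5 pKO mice. Together the 10 genes took 1.04% ± 0.22 of the tags in WT and 0.477% ± 0.091 in pKO mice, and Hp alone made up 81.4% ± 2.4 and 79.6% ± 3.5 of these. The sum is thus in large part a measure of Hp.

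Behind Hp came Lbp at rank 170 and Lrg1 at rank 251, then Cp at rank 2681 and Serpina3n at rank 3650. Saa3 at rank 8129 and Orm1 at rank 8819 followed, and Itih4, Lcn2 and Orm2 averaged under 10 normalized tags. Hp exceeded Lbp, Lrg1 exceeded Cp, Serpina3n exceeded Saa3, and Orm1 exceeded Itih4 in all 11 mice. Lbp exceeded Lrg1 in 10 of 11 mice and Cp exceeded Serpina3n in 8, so these neighbours were not fully apart. The order of Saa3 and Orm1 depended on the group, with Saa3 the higher in 5 of 6 WT and in 0 of 5 pKO mice.

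**Figure D1:**
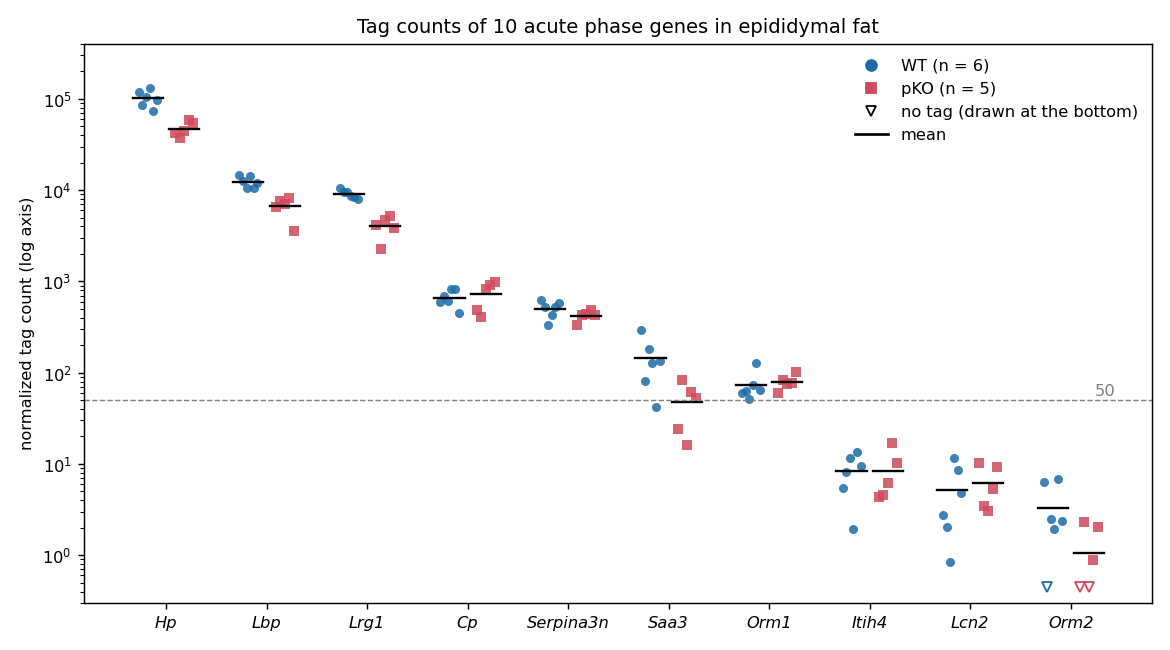
Normalized tag counts of the 10 genes on a log axis, ordered by mean level, with 1 point per mouse (circles WT, squares pKO) and a line at each group mean; the dashed line marks 50, and open triangles are mice with no tag. The genes range from about 1 tag (Orm2) to a mean of 102374 (Hp in WT), and the groups are apart for Hp, Lbp and Lrg1.

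Hp was lower in every pKO mouse than in every WT mouse. The 6 WT mice ranged from 73864 to 131990 normalized tags with a median of 101155. The 5 pKO mice had 41937, 37471, 44216, 58583 and 53812, all below the lowest WT mouse. The means were 102374 ± 21216 (SD) for the 6 WT and 47204 ± 8726 (SD) for the 5 pKO mice, a 2.17-fold difference, and the log2 difference between WT and pKO on the log2(value + 1) scale was 1.11 with a standard error of 0.18 (limma). Within a group the highest mouse had 1.79 times the lowest in WT and 1.56 times in pKO mice. As this is bulk tissue, fewer cells that make a messenger and less messenger in each cell cannot be told apart, here and for the genes that follow.

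Lrg1 codes for leucine-rich alpha-2-glycoprotein, a secreted protein that modulates TGF-beta signalling in blood vessels. WT mice were close to each other, from 8039 to 10604 with a median of 9089 and a coefficient of variation (CV, the SD as a percentage of the mean) of 10.3%. The pKO mice had 4135, 2287, 4751, 5237 and 3830 normalized tags, a CV of 27.8%. The groups did not overlap, and pKO replicate 2 was the lowest of all 11. The log2 difference was 1.22 (SE 0.19), with means of 9143 ± 944 (SD) for the 6 WT and 4048 ± 1125 (SD) for the 5 pKO mice.

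Lbp codes for lipopolysaccharide-binding protein, which hands bacterial lipopolysaccharide to CD14 and TLR4. Its values in WT mice ran from 10480 to 14523 with a median of 12237. In pKO mice they were 6596, 7651, 7119, 8154 and 3602. No pKO mouse reached the lowest WT mouse, and pKO replicate 5, at 3602, lay well below the other 4. The means were 12404 ± 1776 (SD) for the 6 WT and 6624 ± 1787 (SD) for the 5 pKO mice, with a log2 difference of 0.95 (SE 0.20). The lowest pKO mouse was a different animal for Hp and Lrg1 (replicate 2) than for Lbp (replicate 5).

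Saa3, the serum amyloid A gene that is most active outside the liver, varied more between mice than nearly any other gene. WT mice ranged from 42.5 to 291 normalized tags with a median of 131. The pKO mice had 24.0, 83.7, 16.3, 60.9 and 52.2. All 5 pKO mice lay below the WT median, but the groups overlapped, since 2 WT mice fell within the pKO range. The means were 144 ± 87.2 (SD) for the 6 WT and 47.4 ± 27.5 (SD) for the 5 pKO mice, and the log2 difference was 1.57 with a standard error of 0.49. Only the WT mean reached 50. The CV of 60.7% in WT mice was above that of 99.3% of the 9906 genes that averaged 50 or more in a genotype, whose median CV was 15.5% in WT and 23.2% in pKO mice. Counting error alone would give a CV of 8.13% at this depth.

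**Figure D2:**
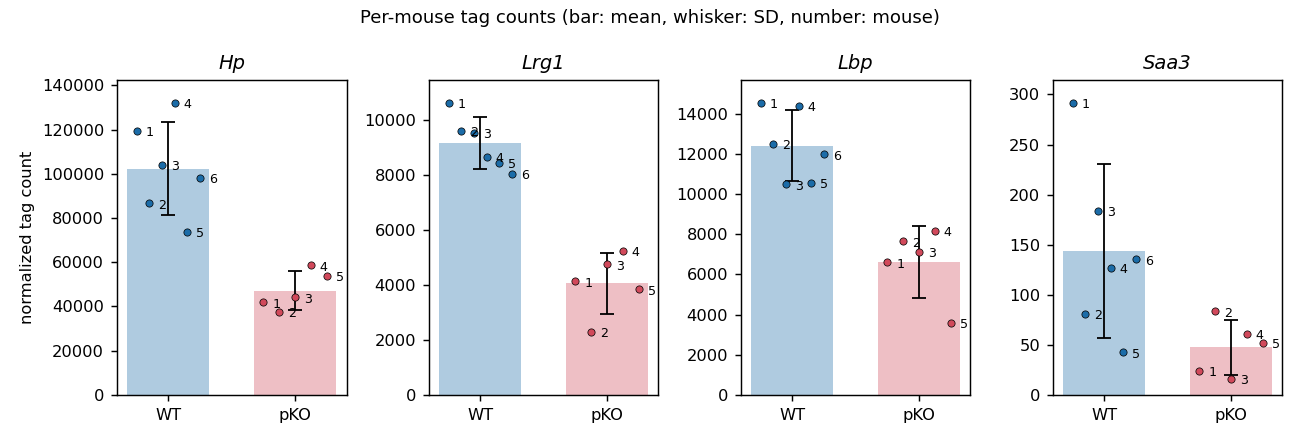
Normalized tag counts of Hp, Lrg1, Lbp and Saa3 in each mouse on linear axes from 0, with bars at the group mean, whiskers of 1 SD and the number of each mouse. WT replicate 1 has the highest Saa3 (291) and Lrg1 (10604), while pKO replicate 2 is lowest for Hp and Lrg1 and highest among pKO mice for Saa3 (83.7).

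Macrophages and hepatocytes are among the other cells in which some of these genes are known to be active. Of 12 macrophage marker symbols, 11 were measured, and the missing one, Adgre1, is another symbol of Emr1. Of those measured, 10 averaged 50 or more. Itgam, Itgax and Cd14 were lower in pKO mice at an unadjusted p of at most 0.05 (limma) and 0 were higher. The shares of the 9906 genes were 5.77% lower and 4.85% higher. None passed an adjusted p of 0.1. Emr1 and Cd163, not called, had log2 differences of 0.01 and -0.23. The summed level of the markers was 5737 to 9004 in WT and 5623 to 7559 in pKO mice, and no marker measured was at 0 in all mice. The part of macrophages in the values of Saa3 was not tested. Of 14 hepatocyte markers, 11 were measured, and Alb (albumin) was the only one that averaged 50 or more. Alb averaged 310 ± 148 (SD) in the 6 WT and 941 ± 408 (SD) in the 5 pKO mice, and the other 10 had means of at most 25.5. The part of hepatocytes in the values of the 10 described genes was not tested. Markers of the tissue lining and stroma were summed as well. The 9 mesothelial genes gave 1245 to 1675 in WT and 1547 to 3030 in pKO mice, with overlap. The 9 fibroblast and progenitor genes gave 54720 to 67503 in WT and 69162 to 74939 in pKO mice. Abundant genes such as Dcn and Col3a1 weigh most in the latter sum. The median log2 difference was -0.69 for the 7 mesothelial genes that averaged 50 or more and -0.09 for the 9 fibroblast and progenitor genes. None of these markers passed an adjusted p of 0.1 (limma), and none was at 0 in all mice. Their part in the values of Hp, Lrg1, Lbp and Saa3 was not tested.

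Orm1 and Orm2 code for orosomucoids, the alpha-1-acid glycoproteins, which carry small lipophilic molecules in plasma. Orm1 in WT mice ranged from 51.0 to 129 normalized tags with a median of 63.8, and in pKO mice it was 60.1, 83.7, 74.3, 76.8 and 102. The pKO values all lay within the WT range, and 4 of 5 were above the WT median. The log2 difference was -0.16 (SE 0.23), the sign meaning a higher mean in pKO mice. Orm2 was listed with 0 to 7 tags a mouse, and 3 mice had none, a count that allows up to 3 tags by counting error. Since both genes share their tag, their sum is the better measure, and it was 76.7 ± 29.9 (SD) in the 6 WT and 80.5 ± 16.3 (SD) in the 5 pKO mice, with a log2 difference of -0.12. Orm3, outside the list but with its own tag, averaged 243 ± 98.8 and 427 ± 201.2, with overlapping groups and a log2 difference of -0.75 (SE 0.36, adjusted p = 0.53, limma).

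Serpina3n, an inhibitor of serine proteases related to human antichymotrypsin, differed little between groups. WT mice ranged from 333 to 631 with a median of 528, and the pKO mice had 331, 424, 435, 485 and 430. The pKO mice were all below the WT median, but 4 of 5 lay within the WT range, and the log2 difference was 0.24 (SE 0.17). Serpina3i, listed apart from it although both have the same tag, had 0.965 to 14.6 normalized tags a mouse. Adding these would change the listed level of Serpina3n little, but how the shared tags were divided is not given. The part of Serpina3i messenger in the Serpina3n values therefore cannot be told.

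Cp codes for ceruloplasmin, the copper-bearing ferroxidase that helps iron leave cells. WT mice ranged from 452 to 819 with a median of 653. The pKO mice had 488, 413, 830, 907 and 994, so that 3 lay above every WT mouse and 1 below every WT mouse. The means of 664 ± 142 (SD) for the 6 WT and 726 ± 260 (SD) for the 5 pKO mice were close, with a log2 difference of -0.07 (SE 0.24) whose sign changed when WT replicate 6, pKO replicate 4 or pKO replicate 5 was left out.

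Lcn2 codes for lipocalin-2, which binds bacterial iron carriers, and Itih4 for a heavy chain of the inter-alpha-trypsin inhibitor family. Lcn2 had 1 to 12 tags and Itih4 2 to 19 tags in a mouse. Mean normalized counts of Lcn2 were 5.12 ± 4.22 (SD) in the 6 WT and 6.26 ± 3.32 (SD) in the 5 pKO mice, and those of Itih4 were 8.39 ± 4.21 and 8.40 ± 5.25. Groups overlapped for both. Counting error alone gives a CV of 44.0% for Lcn2 and 34.0% for Itih4 at these counts in WT mice, so small differences were not detectable at this depth.

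Set side by side, the 10 genes fell into unequal groups by their difference. Hp, Lrg1 and Lbp had between 1.87 and 2.26 times as many tags in WT as in pKO mice, with groups that did not overlap. Saa3 had 3.03 times as many, with overlap. Serpina3n, Cp and Orm1 had pKO means of 83.5%, 109% and 108% of the WT mean. Of the 7 genes that averaged 50 or more, 3 did not overlap between groups and were lower in pKO mice, where 0.717% of all 9906 such genes did so. At an adjusted p of at most 0.1 (limma, Benjamini-Hochberg), 2 of them, Hp and Lrg1, were lower in pKO mice and 0 were higher, against 0.0404% and 0.0101% of the 9906 genes. Neither passed without WT replicate 1, 2, 3, 4 or 6, without pKO replicate 1 or 5, or with a replicate block. At an unadjusted p of at most 0.05, 4 were lower (Hp, Lrg1, Lbp and Saa3) and 0 were higher, against 5.77% and 4.85%. These shares describe the background and, as the genes were listed with this contrast known, nothing is read from them. The median log2 difference was 0.59 over all 10 genes. It was 0.95 over the 7 that averaged 50 or more and -0.01 over the 9906 genes with such a mean.

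**Figure D3:**
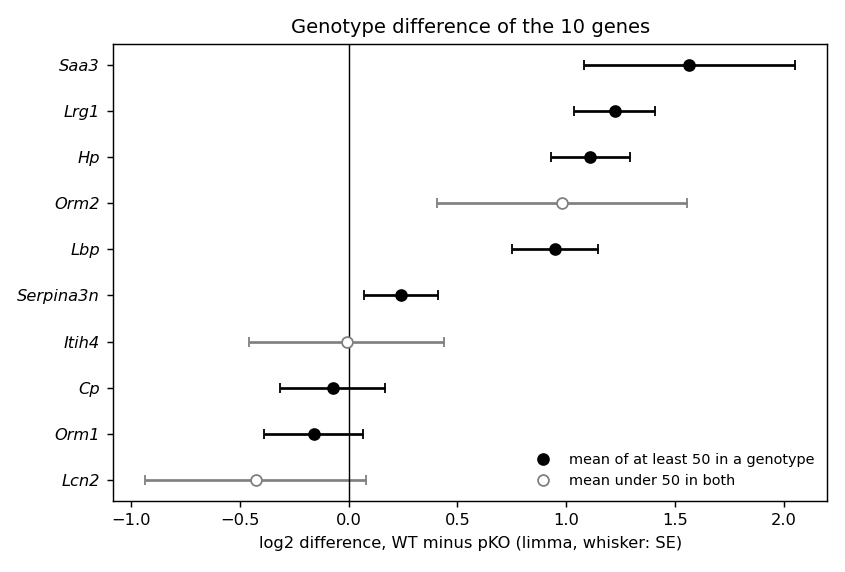
Log2 difference between WT and pKO mice (limma fit on log2(value + 1)) for each of the 10 genes, with whiskers of 1 standard error; filled points average 50 or more in a genotype. Hp, Lrg1, Lbp and Saa3 lie at 0.95 to 1.57, while Serpina3n, Cp, Orm1 and Itih4 lie between -0.16 and 0.24, and the low genes Orm2 and Lcn2 lie at 0.98 and -0.43.

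Whether the genes rise and fall together from mouse to mouse played no part in the list. Deviations of log2(value + 1) from the group mean were therefore correlated for the 45 pairs over 11 mice, with mice shuffled within genotype (100000 shuffles, two-sided). No pair passed an adjusted p of 0.1 by Pearson's r or by Spearman's rho, 0 pairs had an unadjusted permutation p of at most 0.05, and the smallest adjusted p was 0.91 for r and 0.94 for rho. The median r was 0.09, and 28 of 45 were positive. A missed threshold does not show that the genes vary independently, since 11 mice leave wide errors.

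Among Hp, Lrg1, Lbp and Saa3, the pairs had these values. Hp and Lrg1 had r = 0.48 (permutation p = 0.11) and rho = 0.37 (permutation p = 0.25), with r = 0.64 without the 2 mice farthest from the median of Hp. Hp and Lbp had r = 0.08 (permutation p = 0.83) and rho = 0.24 (permutation p = 0.48), and Lrg1 and Lbp had r = 0.07 (permutation p = 0.86) and rho = 0.32 (permutation p = 0.38). Without the 2 farthest mice their r was -0.18 and 0.37. Hp and Saa3 had r = 0.53 (permutation p = 0.12) and rho = 0.44 (permutation p = 0.21), and r = 0.40 without the 2 farthest mice. Lrg1 and Saa3 had r = -0.20 (permutation p = 0.64) and rho = -0.03 (permutation p = 0.95). Lbp and Saa3 had r = 0.14 (permutation p = 0.74) and rho = 0.32 (permutation p = 0.35). Without the 2 mice farthest from the median of Lrg1 or Lbp, r with Saa3 was 0.03 and 0.39. In the 6 WT mice alone no pair passed an adjusted p of 0.1 either (smallest 0.50 for r). There Hp had r = 0.74 with Lbp (exact permutation p = 0.11, adjusted p = 0.79, rho = 0.54 with exact p = 0.30), and r = 0.80 with Saa3 (exact permutation p = 0.056, adjusted p = 0.625, rho = 0.66 with exact p = 0.18). Without the 2 WT mice farthest from the median of Hp these r were 0.40 and 0.997. Negative r of like size were also found in the WT mice. Lbp with Itih4, a gene of few tags, had r = -0.87 (exact permutation p = 0.011, adjusted p = 0.5). Hp with Itih4 had r = -0.82 (exact permutation p = 0.042, adjusted p = 0.625). Saa3 with Orm1 had r = -0.81 (exact permutation p = 0.056, adjusted p = 0.625). Over all 11 mice the highest r, 0.57 between Lrg1 and Cp (permutation p = 0.14, rho = 0.33 with permutation p = 0.40), fell to 0.04 without pKO replicates 2 and 4, so it rested on those mice. Leaving out pKO replicate 4 made 1 pair pass, Lbp with Itih4, whose r was then -0.70 (permutation p = 0.0019, adjusted p = 0.087) and whose rho was -0.75 (adjusted permutation p = 0.70).

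**Figure D4:**
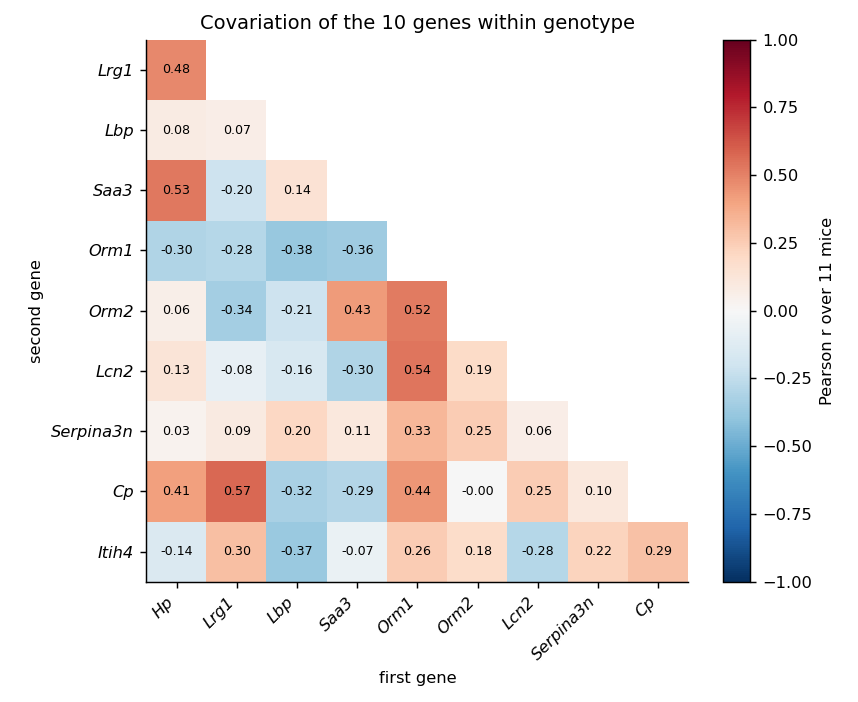
Pearson r for each of the 45 pairs of genes, computed over 11 mice from deviations of log2(value + 1) from the group mean, with red for positive and blue for negative r. The values run from -0.38 (Lbp with Orm1) to 0.57 (Lrg1 with Cp), and no pair passed an adjusted p of 0.1.

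Within the 6 WT mice, Mest ran only from 20756 to 27897 normalized tags. No gene of the 10 passed an adjusted p of 0.1 for its relation with Mest (exact permutation over 720 pairings, two-sided). With so narrow a range in 6 mice, a missed threshold does not show that there is no relation. Serpina3n had the highest r, 0.74 (exact p = 0.092, adjusted p = 0.56), with rho = 0.71 (exact p = 0.14, adjusted p = 0.73), and r = 0.67 without the 2 mice farthest from its median. For Hp, r with Mest was 0.21 (exact p = 0.69) and rho was 0.26 (exact p = 0.66). Lrg1 had r = -0.36 (exact p = 0.48) and rho = -0.31 (exact p = 0.56), and Lbp had r = 0.55 (exact p = 0.24) and rho = 0.54 (exact p = 0.30). Without the 2 mice farthest from its median, r was 0.28 for Hp, -0.85 for Lrg1 and 0.35 for Lbp. The relation was not computed within the 5 pKO mice, since correlations were limited to 6 or more mice.

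The genes whose pattern over the mice was most like that of each listed gene were sought for the 7 that averaged 50 or more. Among the 9906 genes that averaged 50 or more, the deviations of Hp were most like those of Luzp1 (r = 0.91), 2610035D17Rik (r = 0.90) and Arnt (r = 0.89) over 11 mice. For Lrg1 they were 1600012H06Rik (r = 0.95), Fam105b (r = 0.94) and Lars2 (r = 0.94), and for Lbp they were Dgkz (r = 0.96), Arhgef12 (r = 0.95) and Slc43a3 (r = 0.94). Saa3 was most like Fubp1 (r = 0.92), Cybb (r = 0.90) and Slc22a15 (r = 0.89). Orm1 was most like Igfbp5 (r = 0.86), Lias (r = 0.84) and Trabd (r = 0.83), Serpina3n most like AI467606, 0610030E20Rik and Ednra (r = 0.90 each), and Cp most like 1110004E09Rik (r = 0.94), Hoxb5 and Avpi1 (r = 0.92 each). Each is the highest of 9905 correlations that share the same libraries, and so high by choice. In the same order, 840 of 9905 genes were more like Hp than Lrg1 was, and 3901 were more like Hp than Lbp was.

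Other acute phase genes that are commonly raised in inflammation gave a mixed picture. Of 41 listed, 25 were measured and 12 averaged 50 or more. At an unadjusted p of at most 0.05, 5 of the 12 were lower in pKO mice and 0 were higher, beside 5.77% and 4.85% of the 9906 genes, and none passed an adjusted p of 0.1 (limma). The 5 were Serpina3m (178 ± 29.9 and 118 ± 26.3), Serpina3c (1601 ± 336 and 1124 ± 378), Serping1, the inhibitor of complement C1 (9204 ± 1268 and 6242 ± 2134), Cfb, complement factor B (2876 ± 200 and 2185 ± 776), and Cd14 (91.4 ± 16.3 and 67.1 ± 16.8), each as mean ± SD in WT (n = 6) and pKO mice (n = 5). Their log2 differences were 0.45 to 0.62. Serpina3m and Serpina3c belong to the cluster of near copies around Serpina3n, so their tags are read with caution. Mt2, the metallothionein that was the most abundant of the list (13090 ± 2008 and 10646 ± 1617), did not pass (log2 difference 0.30, adjusted p = 0.53). The median of the 12 was 0.41. The fibrinogen chains Fga, Fgb and Fgg, known as liver products, had means of 0.8 to 3.1.

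The negative acute phase genes are those whose products fall in inflammation. Of 9 listed, 8 were measured and 4 averaged 50 or more. At an unadjusted p of at most 0.05 (limma), 2 of the 4 (Alb and Rbp4) were higher in pKO mice and 0 were lower. The shares of the 9906 genes were 4.85% higher and 5.77% lower. The median log2 difference of the 4 was -0.95, and Igf1 had -0.06. Alb had a log2 difference of -1.61 (SE 0.33, adjusted p = 0.19). Rbp4, the retinol carrier that adipocytes secrete, averaged 1915 ± 1133 (SD) in the 6 WT and 4725 ± 2007 (SD) in the 5 pKO mice, a log2 difference of -1.50 (SE 0.50, adjusted p = 0.39). Neither passed the adjusted threshold. Trf, transferrin, was the most abundant at 27698 ± 9227 and 35510 ± 10605 and did not pass (log2 difference -0.41, adjusted p = 0.69).

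In the list of interleukin-6 and STAT3 signalling, 27 genes were listed, 26 measured and 19 averaged 50 or more, of which 3 were lower and 1 higher in pKO mice at an unadjusted p of at most 0.05, with a median of 0.03. The same shares of all genes, 5.77% lower and 4.85% higher, are the background for this list and those that follow. Socs3, the STAT3 target that feeds back on the receptor, had 123 ± 20.1 (SD) in the 6 WT and 73.1 ± 19.4 (SD) in the 5 pKO mice (log2 difference 0.76, SE 0.19, adjusted p = 0.28), and its groups did not overlap. Lif and Bcl3 were the other lower genes, and Cebpa, a C/EBP factor of adipocytes, was higher, at 23100 ± 2256 and 29530 ± 3638 (adjusted p = 0.43). Stat3 itself had 762 ± 115 and 802 ± 268, a log2 difference of -0.02, and the receptor chain Il6st had 0.02. The ligands Osm and Il11 had means of at most 3.0.

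In the list of interleukin-1, TNF and NF-kB signalling, 26 genes were listed, 25 measured and 19 averaged 50 or more. At an unadjusted p of at most 0.05, 4 were lower (Il1rn, Il1r1, Nfkb2 and Tnfrsf1b) and 1, Chuk, was higher in pKO mice, with a median of 0.10 and no gene past the adjusted threshold. Il1rn, the antagonist of the interleukin-1 receptor, had the largest difference, at 216 ± 39.2 (SD) for the 6 WT and 136 ± 54.0 (SD) for the 5 pKO mice and a log2 difference of 0.73 (SE 0.23, adjusted p = 0.37). The cytokines Il1b and Tnf had means of 5.7 and 16.3 in WT and 4.9 and 10.7 in pKO mice.

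Of the 8 glucocorticoid genes, all averaged 50 or more, and only Nr3c1, the glucocorticoid receptor, passed an unadjusted p of 0.05, with the higher level in pKO mice (2276 ± 191 and 2891 ± 322, log2 difference -0.34, adjusted p = 0.37). The target Fkbp5 had a log2 difference of 0.06 (adjusted p = 0.94) and Tsc22d3 0.29 (adjusted p = 0.71). Of 17 receptors and partners of the acute phase proteins, 16 were measured and 14 averaged 50 or more, of which 2 were lower in pKO mice at an unadjusted p of at most 0.05. These were Slc40a1, the iron exporter ferroportin, at 240 ± 39.1 and 159 ± 66.8 (adjusted p = 0.41), and Heph, the membrane-bound relative of ceruloplasmin, at 294 ± 33.0 and 214 ± 79.7 (adjusted p = 0.51). Cd163, the receptor of haptoglobin bound to haemoglobin, had 593 ± 315 and 671 ± 313 (log2 difference -0.23, adjusted p = 0.89), and Tlr4, which acts with lipopolysaccharide-binding protein, had 230 ± 33.5 and 216 ± 20.9 (log2 difference 0.08, adjusted p = 0.95).

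**Figure D5:**
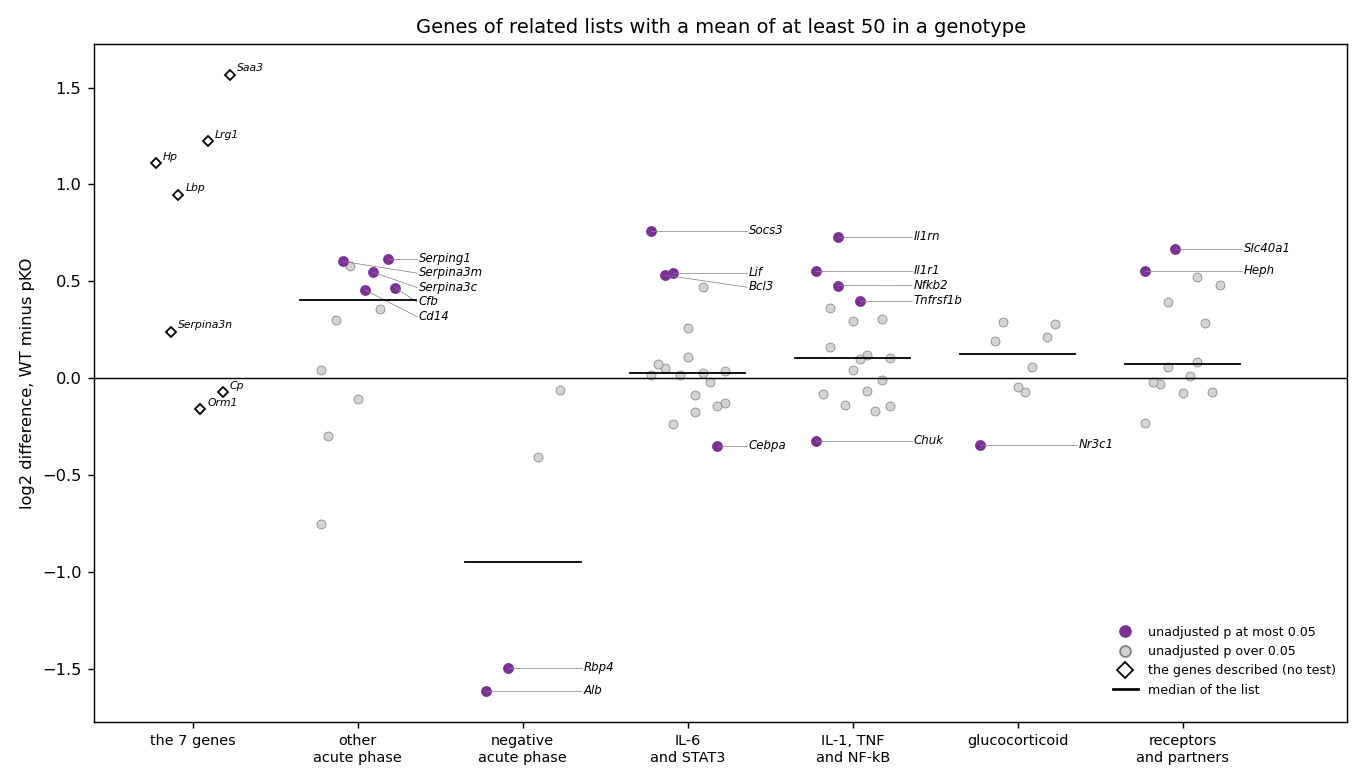
Log2 difference between WT and pKO mice for the 7 described genes that averaged 50 or more (diamonds, no test) and for each gene of 6 related lists with such a mean (circles, purple where the unadjusted limma p is at most 0.05 and named, with a line at the list median). Among the genes drawn from the related lists, Socs3 is the highest at 0.76. The 7 described genes were listed with this contrast known, so nothing is read from their place beside the lists.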

How the data were processed

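SAGE libraries of eWAT from 6 WT and 5 pKO mice were made by the authors with NlaIII and sequenced on a SOLiD system. The authors mapped tags with a modified SOLiD SAGE Analysis Software and analysed the counts with DESeq, and the submitters' processing notes name mm10 and edgeR 3.2.3. The deposited values have the unit signal, tag counts divided by a library size factor, as read from the values, and the factors matched the median-of-ratios size factors of the recovered counts. All values were whole multiples of the value of 1 tag (0.836 to 1.19, tolerance 0.01), so tag counts were recovered from them. The filter that left 15453 genes and the tag length are not given in the sources used here.

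Main differences came from limma 3.58.1 (eBayes with a trend) on log2(value + 1), a scale that understates the change of low genes, over all genes with Benjamini-Hochberg adjustment. Differences are WT minus pKO. A gene was called when it averaged 50 or more in a genotype and its p passed 0.1 after adjustment or 0.05 without it. The alternatives were pseudocounts of 0.5 and 10, total-count and TMM scaling, at least 10 tags in every library, no trend, edgeR 4.0.16, DESeq2 1.42.0 and voom on recovered tags, a replicate block and leaving out each mouse. Tests were checked on simulated data. Permutations used Python 3.11.15 and numpy 2.4.6. No 2 libraries agreed within sampling noise, and no batch is given in the labels. Intervals and floors cover counting error only.

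The genes and lists were chosen with earlier results of these data known. Most genes named from a list are those past a threshold or among up to 4 each with the smallest p or highest mean. Others were named by choice, outside this rule. They include Stat3, Fkbp5, Tlr4, Orm3, Osm, Il11, Il1b, Tnf, the fibrinogen chains and several cell markers. For each of the 7 described genes that averaged 50 or more, the 3 most alike are named. Other marker lists were adipocyte, hepatocyte, macrophage, neutrophil, mesothelial, fibroblast, endothelial, lymphocyte and epididymis.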

Additional observations from a re-analysis of the deposited data

Results flagged for a closer look

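Orm1 in WT replicate 5 was 129 normalized tags, while the other 5 WT mice had 51.0 to 72.8, and this mouse lay farther from the rest than Dixon's criterion allows. Among the 20 groups of mice tested, 2 for each of the 10 genes, this was the only such value, and chance alone gives about 1 in 20. The same mouse had the lowest Hp (73864) and the lowest Saa3 (42.5) of the WT mice. Without it, the log2 difference of Orm1 between WT and pKO mice was -0.34 in place of -0.16.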

How the results depend on the processing

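Hp, Lrg1, Lbp and Saa3 were lower in pKO mice in all 21 alternatives. Their log2 differences ran from 1.03 to 1.20, 1.03 to 1.33, 0.74 to 1.04 and 1.25 to 1.87. The adjusted calls depended on the setting. Of the 10 genes, 2 passed at first, 1 (Lrg1) with a pseudocount of 10 or total-count scaling, and 4 with DESeq2. With each mouse left out in turn 0 to 3 passed, none without WT replicate 1, 2, 3, 4 or 6 or pKO replicate 1 or 5, Lrg1 alone without pKO replicate 3, and Hp, Lbp and Lrg1 without pKO replicate 2. Over all genes the adjusted counts, 4 lower and 1 higher, became 9 and 2 with at least 10 tags in every library and 63 and 58 with DESeq2, and lay between 2 and 65 lower and between 1 and 26 higher with a mouse left out. The largest counts came without pKO replicate 2. The cause was not tested.

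No sign of pairing by replicate number was seen. Deviations of same-numbered mice correlated at -0.02 on average (from -0.09 to 0.14), and those of differently numbered mice at 0.005. Such correlations cannot exclude that mice were paired. With a replicate block (WT replicate 6 dropped), the counts were 1 gene lower and 0 higher, and 0 of the 10 genes passed the adjusted threshold. Pairs of the 10 genes that covaried numbered 0, and 0 to 1 with a mouse left out.

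Counts of related genes at the unadjusted threshold, with a mouse left out, were 3 to 6 lower and 0 to 2 higher for other acute phase genes, 1 to 3 lower for interleukin-6 signalling, 2 to 6 lower and 0 to 1 higher for interleukin-1 and TNF signalling (0 higher with total-count scaling), and 1 to 4 lower for receptors. Few tags limited Orm2, Lcn2 and Itih4. The tag itself was a further limit for Orm2, which shares it with Orm1, and for Lcn2, whose last site is too near the end. Summing Orm1 and Orm2 was chosen after seeing the data.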

Other observations

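Markers of other cells in the same libraries gave these values. At an unadjusted limma p of at most 0.05, 5.77% of the 9906 genes were lower and 4.85% higher in pKO mice. Of 10 mesothelial markers 9 were measured and 7 averaged 50 or more, and 4 of these (Krt19, Upk1b, Bnc1 and Msln) were higher in pKO mice at an unadjusted limma p of at most 0.05. Krt19 averaged 374 ± 81.3 (SD) in the 6 WT and 610 ± 77.6 (SD) in the 5 pKO mice (adjusted p = 0.25, limma), and Upk1b 499 ± 73.7 and 816 ± 193 (adjusted p = 0.27). Of the 9 fibroblast and progenitor markers, Dcn and Dpp4 were higher in pKO mice at the unadjusted threshold (21573 ± 2491 and 27841 ± 3653 for Dcn). Of 12 adipocyte markers, 2 were higher in pKO mice at that threshold and 0 were lower. These were Pnpla2, a lipase that breaks down stored fat (15211 ± 2173 and 22446 ± 5023), and Slc2a4, the insulin-responsive glucose transporter (613 ± 66.6 and 874 ± 205). Lep went the other way without passing (51503 ± 13320 and 36606 ± 10391), and the median log2 difference of the 12 was -0.15. Kdr was the 1 endothelial marker of 5 to pass, higher in pKO mice.

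Neutrophil markers were low, with 5 of 11 measured, sums of 98.5 to 150 in WT and 89.4 to 150 in pKO mice, and means under 50 for S100a8 (35.8 in WT, 19.6 in pKO) and S100a9 (14.5 in WT, 24.5 in pKO). Lymphocyte markers (2 of 8 that averaged 50 or more) and epididymis markers (0 of 9) had no call at either threshold, and the epididymis sum reached 66.6 in 1 WT and 54.1 in 1 pKO mouse. No marker of these lists passed an adjusted p of 0.1.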
